A study of Homo sapiens with 6 samples.

Results

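The APOBEC3 genes encode a family of cytidine deaminases, enzymes that turn cytosine into uracil in single-stranded DNA. They are known for restricting retroviruses and mobile elements, and APOBEC3A and APOBEC3B are also known as sources of mutations in tumours. The family has 7 members, APOBEC3A, APOBEC3B, APOBEC3C, APOBEC3D, APOBEC3F, APOBEC3G and APOBEC3H, which lie side by side on the long arm of chromosome 22, and several of them are known interferon targets. Members were chosen by symbol, with no measured value used. Of the 7, 6 had a row among the 23002 genes of the expression table, and APOBEC3A was not analysed here.

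The sequenced RNA came from U251, an established human glioma line, in samples labelled NC or KD with 3 of each. NC stands for cells with a control hairpin RNA (sh-NC), and KD for cells with a hairpin RNA against TRAF2 (sh-TRAF2). TRAF2 is an adaptor protein of tumour necrosis factor receptor signalling. All 6 samples come from 1 cell line, and both groups carry a hairpin vector, so cells without a vector are no part of the comparison. The sources used here do not say which of the 2 TRAF2 hairpins of the study was in the sequenced cells, whether the cells were 1 clone, or whether the 3 samples of a group were separate cultures. The p-values therefore measure the spread between these samples, which may be technical.

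The hairpin targets are shown because part of one of them recurs in an APOBEC3 transcript. Capitals mark 7 bases, bases 10 to 16 of the first target counted from its 5′ end.

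sh-TRAF2#1 target: cccttgcagATTCCACgccat

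sh-TRAF2#2 target: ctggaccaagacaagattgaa

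APOBEC3C, 3′UTR: ctcagggccATTCCACagtgctccc

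TRAF2, coding exon: cccttgcagATTCCACgccatcggc

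In GENCODE release 29 the 7 bases stand once in the transcript APOBEC3C-201, at chr22:39018514-39018520 on the plus strand (GRCh38). This is in exon 4 of 4, in a 3′UTR of 1965 bases, from the 127th base after the stop codon. In TRAF2 they stand at chr9:136916588-136916594 on the plus strand, in exon 7 of 11. In APOBEC3C they are followed by an A, where the TRAF2 transcript goes on with G. No annotated transcript of the other APOBEC3 members holds these 7 bases. The match is short: among 10820 tested genes with an annotated 3′UTR, 10.6% hold the 7 bases in their longest 3′UTR and 4.41% hold them followed by A. The longest stretch that APOBEC3C-201 shares with the first target anywhere along its length is 8 bases. Stretches of this length are not particular to it, as APOBEC3H-203 shares 9 bases with the first target. With the second target APOBEC3C-201 shares 7 bases, and APOBEC3F-201 and APOBEC3G-201 share 8 each. Earlier work on these samples had already found lower values among transcripts with the 7 marked bases. Their match is thus a description, and its part in the APOBEC3C values was not tested.

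The values are FPKM, fragments per kilobase of transcript scaled to sequencing depth, and so compare levels between genes per length. The reads behind them, taken as the lowest whole numbers that the FPKM steps allow, came to between 33999558 and 36823562 per sample. TRAF2, the targeted gene, was 79.9% lower in sh-TRAF2, with means of 16.3 ± 1.84 FPKM in sh-NC and 3.27 ± 0.054 FPKM in sh-TRAF2 (SD, n = 3 each). Of the markers of glioma cells, VIM, encoding vimentin, stood at 1208 to 1606 FPKM over the 6 samples, while S100B was listed at 0 in 5 of them. PTPRC, the common leukocyte antigen, was at most 0.00447 FPKM in any sample, and the 6 of 15 blood cell markers with a row summed to 0.574 to 0.908 FPKM in sh-NC and 0.411 to 0.817 in sh-TRAF2. CD14, a monocyte marker, made up most of these sums, at 0.277 to 0.629 FPKM over the 6 samples, which is in or above the range of APOBEC3D and APOBEC3G. The other markers with a row were lower than CD14. ITGAM stood at 0.101 to 0.162 FPKM, CSF1R at 0.0872 or less, LYZ at 0.0542 or less and CD79A at 0.0530 or less. Blood cells express APOBEC3 genes at high levels, and the part of such cells in the values was not tested. In bulk samples such as these, fewer cells of a type and less RNA per cell cannot be told apart.

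APOBEC3C, a single-domain deaminase, was the most abundant member. Of the 2 members averaging 0.5 FPKM or more, it was the only one called lower. Its FPKM was 6.92, 7.04 and 7.08 in sh-NC replicates 1, 2 and 3, on 652, 666 and 696 reads. In sh-TRAF2 it was 2.65, 3.18 and 3.50, on 244, 289 and 325 reads. The groups did not overlap, and the lowest sh-NC value lay well above the highest sh-TRAF2 value. The mean went from 7.02 ± 0.082 to 3.11 ± 0.431 FPKM (SD, n = 3 each), lower by 55.6%. With limma on log2(FPKM + 0.1), its log2 fold change came to -1.16 ± 0.096 (SE), with an adjusted p of 5.71e-05 over 11870 genes averaging 0.5 FPKM or more. Here the adjustment is that of Benjamini and Hochberg, and a gene is called at an adjusted p under 0.05. A two-sided exact permutation test gave p = 0.1, the smallest that 3 samples against 3 allow.

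Calls were common in these samples, with 44.6% of tested genes called in either direction and 20.9% called lower. The size of the APOBEC3C change was less common: 0.733% of tested genes were called lower with an absolute log2 fold change above 1, the threshold of the study. With a pseudocount of 1 in place of 0.1, APOBEC3C had a log2 fold change of -0.97 and no longer passed that fold threshold, while its limma adjusted p was 4.21e-05. APOBEC3C held place 54 of 11870 from the lowest log2 fold change, and the median of all tested genes was 0.019. With each sample left out in turn, the APOBEC3C log2 fold change ran from -1.24 to -1.05 with limma adjusted p between 1.21e-04 and 4.49e-04.

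**Figure D1:**
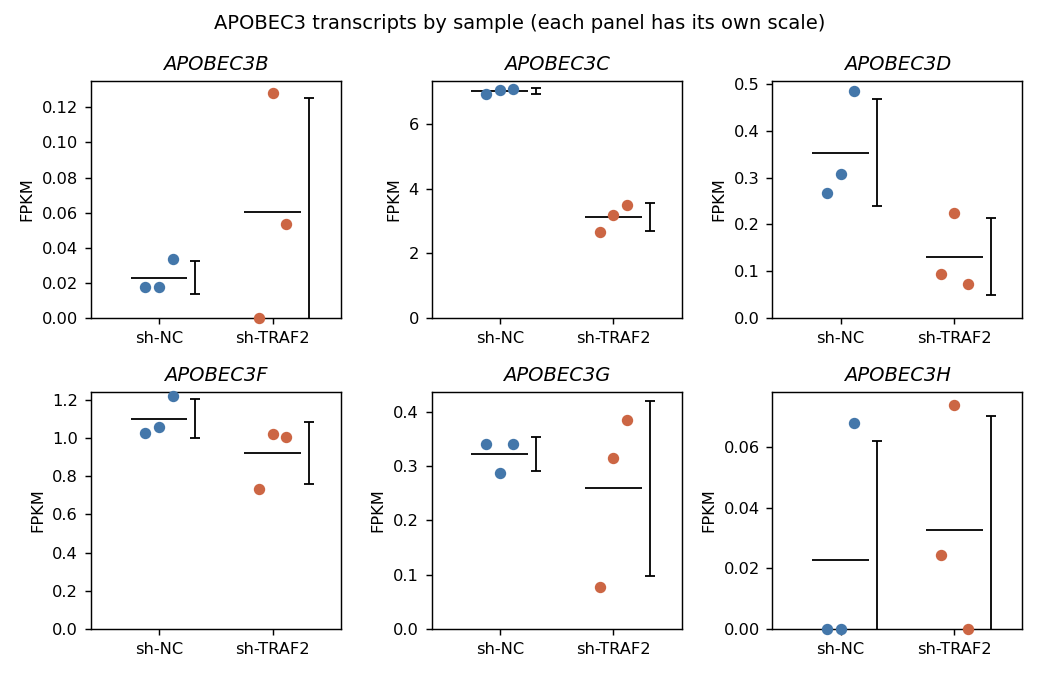
FPKM of the 6 APOBEC3 members with a row, with points for single samples, horizontal lines for group means and bars for SD (n = 3, cut at 0), each panel on its own linear scale. APOBEC3C stands at 6.92 to 7.08 in sh-NC and 2.65 to 3.50 in sh-TRAF2, while APOBEC3B and APOBEC3H stay under 0.13 throughout.

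APOBEC3F, a double-domain deaminase that restricts HIV without its Vif protein, was next in level. Its FPKM was 1.03, 1.06 and 1.22 in sh-NC, on 292, 303 and 362 reads. In sh-TRAF2 it was 0.733, 1.02 and 1.01, on 204, 280 and 282 reads. The groups were separated only by a hair, the lowest sh-NC sample lying just above the highest sh-TRAF2 sample, and sh-TRAF2 replicate 1 was lowest. The means were 1.101 ± 0.103 and 0.920 ± 0.162 FPKM (SD, n = 3 each). The log2 fold change of -0.25 (standard error 0.156) did not pass, with an adjusted p of 0.233 from limma. Groups that do not overlap, with sh-TRAF2 lower, were found for 26.5% of tested genes, so this separation by itself is common here.

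APOBEC3D, another double-domain member, lay under the filter on low values. Its FPKM was 0.268, 0.308 and 0.484 in sh-NC, on 26, 30 and 49 reads. In sh-TRAF2 it was 0.0950, 0.225 and 0.0733, on 9, 21 and 7 reads. The groups did not overlap, sh-TRAF2 being the lower, and the spread within each group was wide, at 0.354 ± 0.115 and 0.131 ± 0.082 FPKM (SD, n = 3 each). The mean was lower by 62.9%, on few reads. Fitted without the filter, its log2 fold change was -1.0 (standard error 0.306) and did not pass (limma adjusted p = 0.0693), in a fit that called 8.98% of genes lower. On recovered reads, limma-voom (14130 genes averaging 10 reads or more) gave -1.52 (adjusted p = 0.0155) and called 19.4% of genes lower. That call was lost when sh-NC replicate 3, sh-TRAF2 replicate 1 or sh-TRAF2 replicate 3 was left out, with log2 fold changes of -1.27, -1.38 and -1.2 and limma-voom adjusted p of 0.0504, 0.0610 and 0.0770.

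APOBEC3G, the member best known for blocking Vif-deficient HIV, did not separate the groups. Its FPKM was 0.341, 0.287 and 0.341 in sh-NC, on 45, 38 and 47 reads, and 0.0776, 0.315 and 0.385 in sh-TRAF2, on 10, 40 and 50 reads. A single sample, sh-TRAF2 replicate 1, lay below the range of sh-NC, and the other two sh-TRAF2 samples lay within or above it. The log2 fold change was -0.36 without the filter (limma adjusted p = 0.590) and -0.59 with limma-voom (adjusted p = 0.326). Without sh-TRAF2 replicate 1 the limma-voom value was 0.11 (adjusted p = 0.796), so its direction rested on that library.

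APOBEC3B, a nuclear deaminase linked to mutation in tumours, was listed at or near 0 in all libraries. It had 1, 1 and 2 reads in sh-NC and 0, 7 and 3 in sh-TRAF2, which is at most 0.128 FPKM. APOBEC3H, a single-domain member with common unstable variants, had 0, 0 and 3 reads in sh-NC and 1, 3 and 0 in sh-TRAF2. Values of a few reads carry no fold change, and a difference in either gene was not detectable at this depth.

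The order of levels over all 6 samples was APOBEC3C, then APOBEC3F, then APOBEC3D and APOBEC3G, then APOBEC3B and APOBEC3H. The lowest APOBEC3C value, 2.65 FPKM, stood above the highest APOBEC3F value, 1.22, which in turn did not overlap with the range of any lower member. APOBEC3D and APOBEC3G overlapped, as did APOBEC3B and APOBEC3H, and each of these last also reached into the range of APOBEC3D.

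Since APOBEC3C made up most of the family, the summed level followed it. The summed FPKM of the 6 members was 8.58, 8.71 and 9.23 in sh-NC and 3.58, 4.95 and 5.02 in sh-TRAF2. Without APOBEC3C the sums overlapped, at 1.82 ± 0.280 in sh-NC and 1.40 ± 0.428 in sh-TRAF2 (SD, n = 3 each). APOBEC3C took 79.4% ± 2.32 of the family total in sh-NC and 69.4% ± 4.84 in sh-TRAF2 (SD, n = 3 each). The share of APOBEC3F was 12.4% ± 0.668 in sh-NC and 20.4% ± 0.314 in sh-TRAF2 (SD, n = 3 each), with no overlap between groups. A share moves when any other member moves, and in FPKM itself APOBEC3F was not higher.

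**Figure D2:**
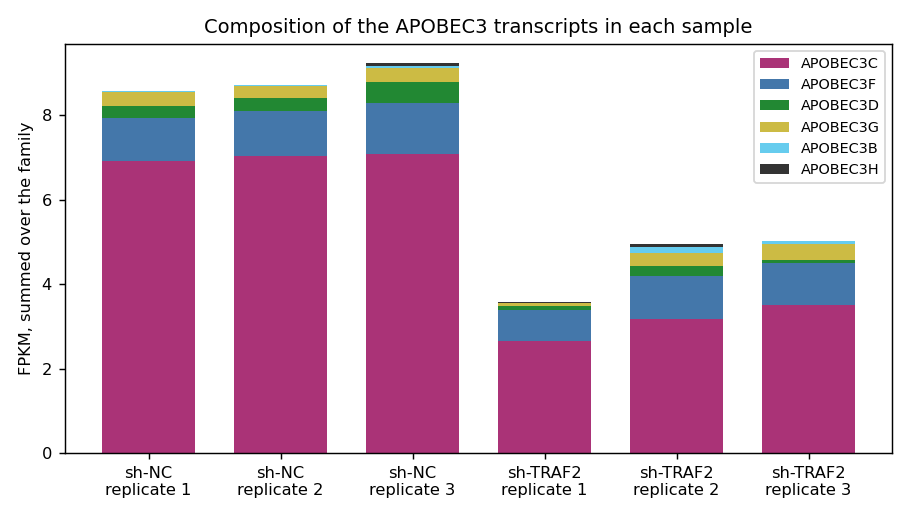
Stacked FPKM of the 6 APOBEC3 members in each of the 6 samples, on a linear axis from 0. The bars total 8.58 to 9.23 in sh-NC and 3.58 to 5.02 in sh-TRAF2, and most of the gap is APOBEC3C.

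Whether APOBEC3C changed differently from its neighbours was asked of the ratio within each sample. APOBEC3C stood above APOBEC3F by a ratio of 6.75, 6.65 and 5.81 in sh-NC and of 3.62, 3.12 and 3.48 in sh-TRAF2. All ratios in sh-TRAF2 lay below all in sh-NC. The log2 fold change of APOBEC3F was higher than that of APOBEC3C by 0.91 (95% confidence interval 0.489 to 1.33, limma adjusted p = 2.49e-05), and a two-sided exact permutation test of the ratios gave p = 0.1, the smallest possible. The difference stayed between 0.86 and 0.97 with each sample left out in turn. Such a difference is not particular to APOBEC3F, since 98.5% of tested genes differed from APOBEC3C in the same fit. All these ratios share the APOBEC3C values, so their errors are not independent. The fit pools the spread of the ratios as if it were. The limma adjusted p and the 98.5% are therefore more confident than 3 samples per group warrant. The log2 ratios of this pair had SDs of 0.119 in sh-NC and 0.111 in sh-TRAF2 (n = 3 each). The interval instead uses a pooled standard error of 0.215, so it is wider than these ratios alone would give. The permutation test does not use this pooling.

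The lower members were compared with APOBEC3C in the fit without the filter, in which 97.8% of genes differed from it. These ratios share the APOBEC3C values too, so the intervals and adjusted p-values below are likely too confident. APOBEC3G lay 0.80 above APOBEC3C in log2 fold change (95% confidence interval 0.182 to 1.41, limma adjusted p = 0.0135). The call was lost without sh-TRAF2 replicate 2, at 0.65 (limma adjusted p = 0.0597), and without sh-TRAF2 replicate 3, at 0.60 (limma adjusted p = 0.0954), and without sh-TRAF2 replicate 1 the difference was 1.13. APOBEC3D, the gene next to APOBEC3C, lay 0.16 above it (95% confidence interval -0.456 to 0.768, limma adjusted p = 0.608). This interval leaves room for a change of the same size as that of APOBEC3C and for a clearly smaller one. A pseudocount of 0.1 pulls the fold changes of such low genes towards 0.

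The members are close neighbours and near copies in part of their sequence, which bears on where reads were counted. In GRCh38 coordinates, APOBEC3B lies at chr22:38982347-38992804, APOBEC3C at chr22:39014083-39020352, APOBEC3D at chr22:39021113-39033276, APOBEC3F at chr22:39040604-39053910, APOBEC3G at chr22:39077005-39087743 and APOBEC3H at chr22:39097224-39104067, all on the plus strand. Of the 50-base windows of the APOBEC3C transcripts, 1.14% also occur in another member, and of the 100-base windows 0% do. The shares of 50-base windows found in another member are larger for APOBEC3F (20.8%), APOBEC3D (14.8%), APOBEC3G (7.06%) and APOBEC3B (37.8%). Of 100-base windows the shares are 13.3% for APOBEC3F, 8.73% for APOBEC3D, 5.05% for APOBEC3G and 25.1% for APOBEC3B. How reads from shared sequence were counted is not given in the sources used here, so the values of these members are uncertain to an extent that was not measured. GENCODE also holds a readthrough gene, AL022318.4, at chr22:39014363-39033276 over both APOBEC3C and APOBEC3D, and APOBEC3B-AS1 at chr22:38991559-38998209 on the other strand across the end of APOBEC3B. Whether strand was used in counting is not given in the sources used here, so reads of APOBEC3B and of its antisense partner cannot be told apart.

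The genes on either side of the cluster had log2 fold changes nearer to 0 than that of APOBEC3C. Among the 5 nearest tested genes on each side, 5 of 10 were called, 2 higher and 3 lower, where 44.6% of all tested genes were called. Their median log2 fold change was -0.054, within a range of -0.667 to 0.301. On the side of APOBEC3B, DNAL4, a dynein light chain, fell by 0.67 on the log2 scale (limma adjusted p = 0.00132), SUN2, a nuclear envelope protein, by 0.29 (limma adjusted p = 0.00138) and JOSD1, a deubiquitinase, by 0.12 (limma adjusted p = 0.0253). On the side of APOBEC3H, PDGFB, a growth factor, rose by 0.30 (limma adjusted p = 0.0166) and RPL3, a ribosomal protein, by 0.15 (limma adjusted p = 0.00542). The called neighbours thus did not share a direction, and both that rose lay beyond APOBEC3H.

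**Figure D3:**
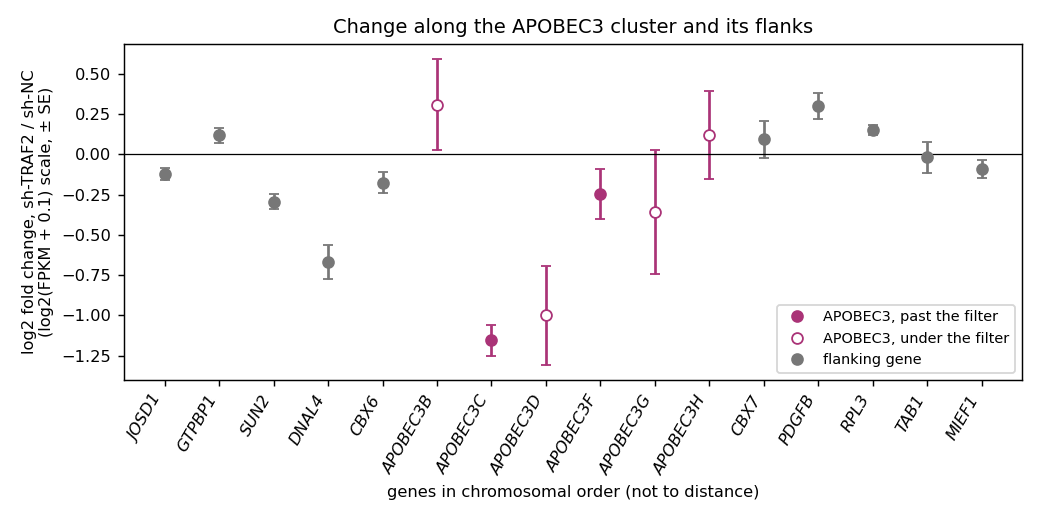
Log2 fold change of sh-TRAF2 over sh-NC on the log2(FPKM + 0.1) scale with standard errors (n = 3 per group) for the APOBEC3 members and the 5 nearest tested genes on each side, in chromosomal order and not to distance. Open symbols are members under the filter, from the fit without it, and APOBEC3C at -1.16 is the lowest of the filled symbols.

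Among other deaminases, 2 of 6 tested genes were called, both lower, and the median log2 fold change was -0.167. Over all tested genes 44.6% were called in either direction and 20.9% lower, so the count is near the background. DCTD, the deaminase that makes dUMP from dCMP for the nucleotide pool, was 31.5, 31.3 and 32.4 FPKM in sh-NC and 12.9, 13.8 and 14.2 in sh-TRAF2. The 2 groups lay far apart, and its log2 fold change of -1.21 (limma adjusted p = 2.22e-06) was close in size to that of APOBEC3C. ADAR, which edits adenosine in RNA, fell by 0.29 (limma adjusted p = 0.00250). The 7 bases shown for APOBEC3C, followed by A, also stand in the longest 3′UTR of DCTD. They stand there as well in ADARB1 and in MIEF1, a gene flanking the cluster, whose log2 fold changes of -0.23 and -0.09 did not pass (limma adjusted p = 0.303 and 0.229). ADAR and JOSD1, both called lower, hold the 7 bases in the longest 3′UTR, but not followed by A. The flanking genes SUN2 and DNAL4, also called lower, do not hold them. Nor do FRMD8, MAP3K7, BTBD3, ALDH3B1 and RIPOR1, all called lower, whose patterns are described below. These genes were looked up after the values were seen.

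Uracil left by a deaminase is removed by base excision repair, which starts with a uracil glycosylase. Of 19 genes for uracil repair and its accompanying steps, 7 rose and 4 fell, with a median log2 fold change of 0.079. These counts moved with single libraries, to 6 and 2 without sh-NC replicate 1 or without sh-TRAF2 replicate 1 and to 4 and 3 without sh-TRAF2 replicate 3. Over all tested genes 23.7% were called higher. UNG, the main uracil glycosylase, was 7.14, 6.89 and 6.33 FPKM in sh-NC and 10.2, 9.42 and 8.55 in sh-TRAF2, without overlap, and rose by 0.46 (limma adjusted p = 0.00174). PCNA, the sliding clamp of replication, rose by 0.70 (limma adjusted p = 6.67e-05), and HMCES, which shields abasic sites in single-stranded DNA, rose by 0.47 (limma adjusted p = 6.77e-04).

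Other restriction factors of retroviruses and mobile elements were called in both directions. Of 18 tested genes 8 rose and 3 fell, with a median of 0.154, where 23.7% of all tested genes were called higher and 20.9% lower. The counts went to 6 and 2 without sh-NC replicate 2 or without sh-TRAF2 replicate 2. Without sh-TRAF2 replicate 3 they went to 6 and 4. RNASEH2A, the catalytic subunit of RNase H2, rose by 0.92 (limma adjusted p = 4.02e-06) and SLFN11, which limits viral protein synthesis, by 0.47 (limma adjusted p = 5.34e-04). SLFN5, a relative of SLFN11, fell by 0.92 (limma adjusted p = 3.67e-04), from 19.9 ± 2.20 to 10.5 ± 1.53 FPKM (SD, n = 3 each).

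Several APOBEC3 genes are interferon targets in other cells, so the interferon pathway was read beside them. Of 35 tested genes for interferon signalling and its targets, 22 rose and 2 fell, where 23.7% and 20.9% of all tested genes did. The median log2 fold change of the list was 0.505. The fold threshold was passed by 10 genes of the list on the higher side, against 0.986% of all tested genes. ISG15, a ubiquitin-like modifier, was 148, 132 and 174 FPKM in sh-NC and 287, 335 and 358 in sh-TRAF2, and rose by 1.11 (limma adjusted p = 1.15e-04). OASL, an antiviral protein of the oligoadenylate synthetase family, rose by 1.02 (limma adjusted p = 3.65e-04), and JAK1, a kinase of the receptors, fell by 0.31 (limma adjusted p = 2.97e-04). Earlier work on these samples had already shown higher interferon targets, so the list is not independent evidence of its direction. With each sample left out in turn, between 18 and 24 genes of the list were called higher, and 1 was called lower in place of 2 unless the sample left out was sh-NC replicate 3. APOBEC3C and the list thus had opposite signs, and APOBEC3F and APOBEC3G had no call in either direction in the fits above. APOBEC3D was lower as well, at -1.0 and not called without the filter. With limma-voom it was called lower at -1.52, a call that was lost when single samples were left out.

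APOBEC3B is known to respond to NF-kappaB and to the cell cycle complexes that contain E2F, MYBL2 and RB family proteins. Of 23 such regulators, 9 rose and 6 fell, with a median of 0.123, counts to be read against 23.7% and 20.9% of all tested genes. With each sample left out in turn, between 8 and 10 regulators rose and 5 or 6 fell. APOBEC3B itself stayed at 10 reads or fewer in each group's total. E2F8, a repressor of the E2F family, rose by 1.26 (limma adjusted p = 8.76e-05) and RBBP4, a subunit of the complexes, by 0.45 (limma adjusted p = 9.67e-05).

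**Figure D4:**
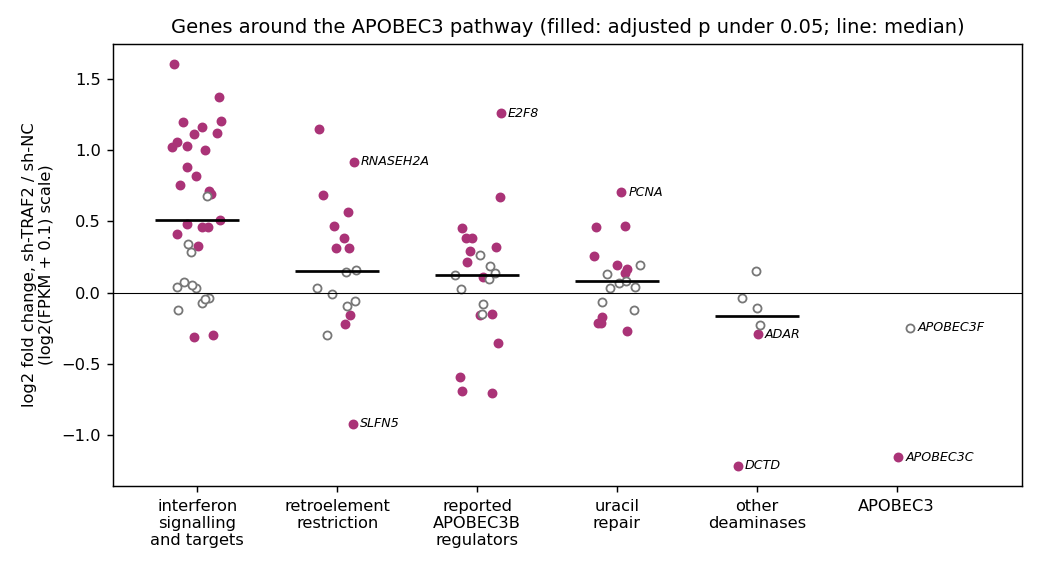
Log2 fold change of sh-TRAF2 over sh-NC on the log2(FPKM + 0.1) scale for each tested gene of 5 lists and for the tested APOBEC3 members, filled where the limma adjusted p is under 0.05, with lines for list medians and horizontal scatter added for display. The medians run from -0.167 for other deaminases to 0.505 for interferon signalling and targets, and APOBEC3C and DCTD lie lowest.

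The genes whose FPKM pattern over the 6 samples was most like that of APOBEC3C were FRMD8 (Pearson r = 0.9994), MAP3K7 (0.9992), BTBD3 (0.9987), ALDH3B1 (0.9985) and RIPOR1 (0.9982). With 6 samples in 2 groups and 11870 genes, values this high largely follow the group difference. These genes fell by less than APOBEC3C, with log2 fold changes from -0.68 to -0.34. HSPA4L (-0.9996) and SGMS1 (-0.9992) had the most opposite patterns, and APOBEC3F had an r of 0.738.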

How the data were processed

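Messenger RNA of 6 samples was measured. The authors deposited 1 table of FPKM values. The submitters' processing notes name HISAT2, HTSeq, R 3.2.0 and DESeq2, and the genome build is not given in the sources used here. From the deposited FPKM, log2(FPKM + 0.1) was compared with limma 3.58.1 in R 4.3.3 (eBayes with a trend, two-sided), for genes averaging 0.5 FPKM or more, with Benjamini-Hochberg adjustment over all genes kept. The same fit was made on log2 ratios to APOBEC3C. Whole reads were recovered from the FPKM steps for all but 2643 genes with reads in 1 sample only, which were set to the lowest number, and the recovery was tested on simulated data. They served limma-voom as an alternative. The fits were tested on simulated data too.

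Samples were grouped by their labels. Members and gene lists were chosen with earlier results of these data known. Named are the members, TRAF2, the 3 called genes of each list with the smallest adjusted p, the called flanking genes and the genes most like APOBEC3C. A result for 1 gene that this rule selects is not reported here. S100B, PTPRC, CD14, ITGAM, CSF1R, LYZ, CD79A, CUL5, ADARB1 and MIEF1 were chosen after their values were seen. Alternatives were other pseudocounts, filters and normalizations, no trend, the replicate number as a block and each sample left out. Those added after seeing the data were the limma-voom fit, the unfiltered ratio fit and the list counts, each with 1 sample left out. Transcripts were from GENCODE release 29 (GRCh38), and gene order was from RefSeq. Python 3.11.15 was used.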

Additional observations from a re-analysis of the deposited data

How the results depend on the processing

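Of 148 comparisons of a result with an alternative, 142 kept the same direction and the same side of an adjusted p of 0.05 or, for counts of genes, stayed near the main count, none reversed and 6 moved. A pseudocount of 1 called 46 genes higher and 41 lower past the fold threshold, in place of 117 and 87. APOBEC3C, at -0.97, was then no longer among them, though its limma adjusted p stayed under 0.05. Limma-voom called 239 and 174. Limma-voom also called 2 APOBEC3 members lower in place of 1, the added one being APOBEC3D, which was under the filter of the main fit. The fit without the filter held APOBEC3D and did not call it (limma adjusted p = 0.0693). Without the filter 22502 genes differed from APOBEC3C in place of 11694, with more genes tested.

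The numbers of the samples are shared between groups, but same-numbered samples did not deviate together (correlations of -0.0812, 0.0722 and 0.0728). With the replicate number as a block, the replicate block gave APOBEC3C the same log2 fold change of -1.16 with a limma adjusted p of 2.28e-04, and 2912 genes were called higher and 2539 lower. The block changed no call on an APOBEC3 member.

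The depth limits APOBEC3B and APOBEC3H, with 10 reads or fewer per group, and leaves APOBEC3D and APOBEC3G imprecise.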

Other observations

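The subunits of the ubiquitin ligase that the HIV protein Vif recruits against APOBEC3 proteins were all transcribed in U251 cells. Of 7 such genes, ELOC, encoding elongin C, was called, with 33.4, 34.3 and 33.3 FPKM in sh-NC and 41.8, 39.0 and 40.0 in sh-TRAF2, a rise of 0.26 on the log2 scale (limma adjusted p = 0.00131). The other 6 did not pass, though 2 genes of the list were called without sh-NC replicate 2 or without sh-TRAF2 replicate 2. The median log2 fold change of the list was 0.132, and 44.6% of all tested genes were called. CUL5, the scaffold of the ligase, was 5.04 ± 0.208 FPKM in sh-NC and 4.85 ± 0.266 in sh-TRAF2 (SD, n = 3 each). Among 7 tested markers of glioma cells, 3 rose and 1 fell, where 23.7% of all tested genes were called higher and 20.9% lower. With each sample left out in turn, between 2 and 4 markers rose and 1 fell. VIM rose by 0.35 (limma adjusted p = 6.87e-05), NES, encoding nestin, rose by 1.12 (limma adjusted p = 1.91e-05), and EGFR, a growth factor receptor, fell by 1.14 (limma adjusted p = 2.23e-06).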
